A study of Bos taurus with 8 samples.

Results

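The basement membrane genes of the bovine blastocyst described here are LAMA1, LAMB1 and LAMC1, which encode the chains of laminin-111, COL4A1 and COL4A2, which encode the major type IV collagen chains, the nidogen genes NID1 and NID2, HSPG2, which encodes perlecan, and SPARC, which encodes a collagen-binding matricellular protein. They are 9 of the 15229 gene symbols on the array. They were found by their symbol in the array's probe annotation and are carried by 11 probes, 1 for each gene except LAMC1, which has 3. LAMA1 was selected on its glucose over control ratio in these data, and the other genes were added as components of the same structure with earlier results of these data known. The ratios in that contrast are therefore given as a description, without a test of any of these genes.

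Bovine embryos made by in vitro maturation and fertilization of oocytes from slaughterhouse ovaries were cultured from day 0 to day 3 at 0.2 mM glucose (control pools) or at 5 mM (glucose pools). All then grew in the usual culture medium to the blastocyst stage and were collected 180 h after fertilization, in 4 pools of 10 embryos per group. The embryos are labelled as dairy cattle of any breed, and each group lived wholly in vitro. RNA of a glucose pool and a control pool was hybridised together on each of 8 arrays, once in each dye orientation, so that 2 arrays measured each pool pair.

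A basement membrane is a thin sheet of matrix on which epithelia rest. Laminin heterotrimers of an alpha, a beta and a gamma chain polymerise at the cell surface, type IV collagen forms a second network, and nidogens and perlecan connect the networks. In mammalian blastocysts the primitive endoderm is known for its high output of laminin, type IV collagen and SPARC, and in the mouse its parietal derivative builds the thick Reichert's membrane from the same components.

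Each ratio is log2(glucose/control) and is positive where the glucose pool was brighter. The value of a pair is the mean of its dye-swapped arrays, and pools are numbered by the array number in the labels, a pairing that is inferred. A level is the log2 intensity of 1 pool after normalisation, the mean of its 2 channel values, and is compared only between pools for the same probe. A probe was tested where 4 or more of the 8 arrays had a channel brighter than the negative control spots. This kept 32935 of 43794 probes, all 11 member probes included. Per array, 66.2% to 82.2% of all probes exceeded this limit. In 1 channel of glucose pool 1, a bright negative control spot raised the limit to 1318 instead of 146. Counts of glucose channels above the limit are lowered by it, most of all for dim probes. The ratios of pair 4 were more widely spread over all tested probes, with an SD of 0.43 against 0.20 to 0.24 in pairs 1 to 3. The test of glucose over control uses the spread between the 4 pairs. The tests between pairs and among pools use the spread between the 2 arrays of a pair, which is technical. The labels do not say whether pools came from separate batches of ovaries, so no p-value measures the spread between batches. A pool holds whole blastocysts, so fewer cells of a type and less RNA per cell cannot be told apart.

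LAMA1, the alpha chain that lets laminin-111 bind cells and polymerise, was brighter in the glucose pool of every pair. Its ratio was 0.34 in pair 1, 0.43 in pair 2, 0.36 in pair 3 and 0.66 in pair 4, with a mean of 0.45 ± 0.15 (SD, n = 4 pairs), or 1.36-fold. The control pools had levels of 11.07, 10.55, 11.10 and 10.77, and the glucose pools 11.41, 10.98, 11.46 and 11.43. The groups overlapped, since glucose pool 2 lay below control pools 1 and 3, while within each pair the glucose pool was the higher. Its signal exceeded the negative controls in 16 of 16 channels. LAMA1 was the 1 member of the 9 with the same sign in all 4 pairs and on all 8 arrays, in the contrast on which it was chosen. Over all tested probes, 10.5% had the same sign in all 4 pairs and 1.33% on all 8 arrays.

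The size of the LAMA1 ratio differed with the dye. With glucose in Cy5 the arrays gave 0.04, 0.09, 0.07 and 0.50 for pairs 1 to 4, and with glucose in Cy3 they gave 0.64, 0.77, 0.65 and 0.83. In 3 of the 4 pairs the ratio was thus near 0 in one orientation and above 0.6 in the other. The dye term of LAMA1 was -0.27 (limma, adjusted p = 0.000577), and this term passed the threshold for 4 of the 11 member probes, those of LAMA1, NID1, NID2 and HSPG2, and for 47.4% of all tested probes. The widest gap between the arrays of a pair was 0.68, larger than the mean ratio of 0.45. Averaging over the dye swap removes a constant dye offset from the mean. Whether the offset was constant between pairs was not tested.

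**Figure D1:**
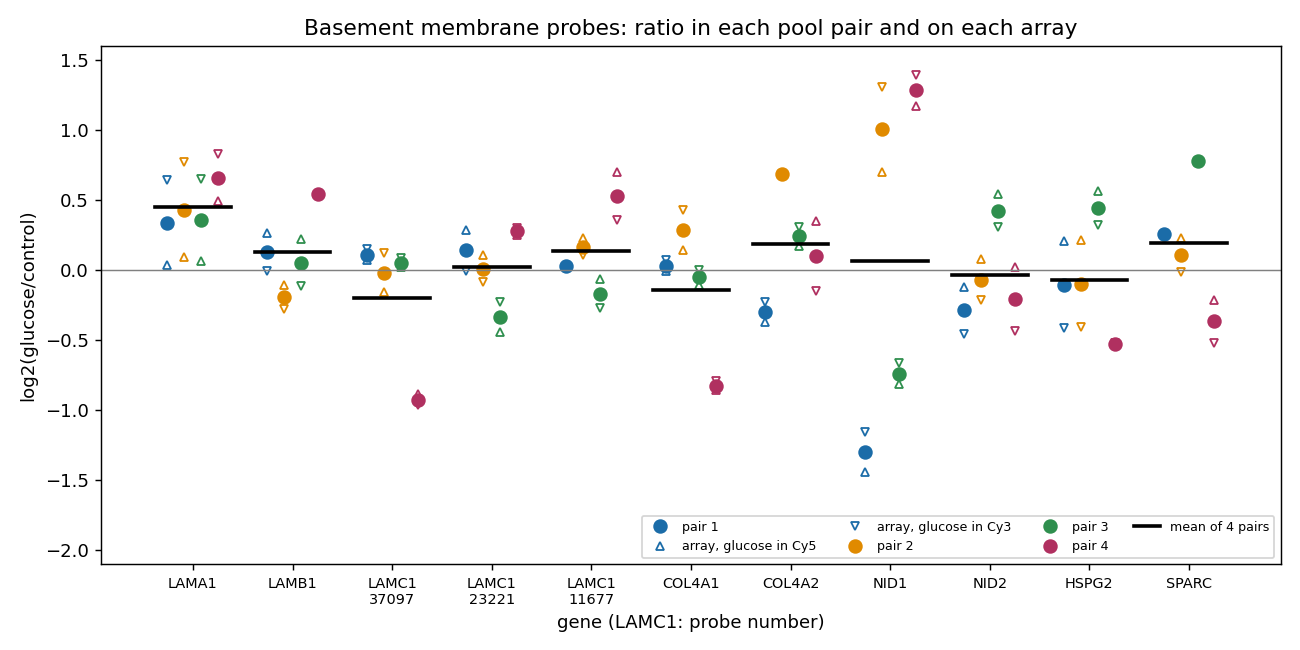
Log2(glucose/control) of the 11 probes of the 9 genes; filled circles are the 4 pool pairs, open triangles the single arrays (pointing up with glucose in Cy5, down with glucose in Cy3), black lines the mean of 4 pairs, and LAMC1 probes carry the last digits of their name. LAMA1 lies above 0 on all 8 arrays, while NID1 runs from -1.30 in pair 1 to 1.28 in pair 4.

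Over all tested probes the contrast of glucose with control gave no call. None of the 32935 adjusted p-values of limma was under 0.05 (0 probes, 0%), and 780 probes had an unadjusted p under 0.05. Of the 11 member probes, 7 had a mean ratio above 0 and 4 below. Their median ratio was 0.06, beside 0.00 over all tested probes. The partners of LAMA1 in laminin-111 and the other components did not share its sign in every pair.

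LAMB1, the beta chain of laminin-111, had ratios of 0.13, -0.19, 0.05 and 0.54 in pairs 1 to 4, with a mean of 0.13 ± 0.30 (SD, n = 4). Control pool levels were 10.01, 9.92, 9.66 and 8.96, and glucose pool levels 10.14, 9.73, 9.71 and 9.50. Control pool 4 was the lowest of the 8, and the groups overlapped. The mean ratio was -0.00 without pair 4 and 0.24 without pair 2.

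LAMC1, the gamma chain shared by most laminins, was read by 3 probes, and the ratios of the brightest did not run with those of the others. The brightest, EMBV3_37097, had ratios of 0.11, -0.02, 0.05 and -0.93, with a mean of -0.20 ± 0.49. Its level was 11.28, 11.13, 11.43 and 12.46 in control pools 1 to 4, and 11.39, 11.11, 11.48 and 11.54 in the glucose pools, so that control pool 4 stood above the other 7 pools. Probe EMBV3_23221 had 0.14, 0.01, -0.34 and 0.28, and probe EMBV3_11677 had 0.03, 0.17, -0.17 and 0.53, with the same sign as each other in each pair. In pair 4 these dimmer probes were positive where the brightest was negative, and for EMBV3_23221 control pool 4 had the second lowest level of the 8, at 8.48. Without pair 4 the mean ratio of the brightest probe was 0.05. Which transcript forms the probes read was not analysed here.

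COL4A1, which encodes the alpha-1 chain of type IV collagen, had ratios of 0.03, 0.29, -0.05 and -0.82, with a mean of -0.14 ± 0.48. Control pool levels were 10.07, 9.86, 10.24 and 10.75, and glucose pool levels 10.10, 10.15, 10.19 and 9.93. Control pool 4 was again the highest of the 8, and without pair 4 the mean ratio was 0.09.

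COL4A2, whose gene is the neighbour of COL4A1 in the RefSeq order of genes and whose chain joins it in the same trimer, had -0.30, 0.69, 0.24 and 0.10, with a mean of 0.18 ± 0.41. Its probe was dim and exceeded the negative controls in 8 of 16 channels. Its levels were 7.53, 6.92, 6.40 and 6.49 in the control pools and 7.23, 7.60, 6.64 and 6.59 in the glucose pools. The probe for COL4A2 was therefore high in pairs 1 and 2 in both groups, a pattern that the COL4A1 probe did not show. Without pair 2 its mean ratio was 0.02.

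NID1, the nidogen that links laminin to type IV collagen, had the widest swing of the 9 genes. Its ratio was -1.30 in pair 1, 1.01 in pair 2, -0.74 in pair 3 and 1.28 in pair 4, a range of 2.58 or 5.99-fold, while the mean was 0.06 ± 1.27. Of all tested probes, 0.243% had a wider range between pairs. The control pools had levels of 10.82, 10.47, 9.89 and 9.91, and the glucose pools 9.52, 11.47, 9.16 and 11.19. The glucose pools held both the highest and the lowest of the 8 levels, with pools 2 and 4 high and pools 1 and 3 low. Each pair kept its sign in both dye orientations, as for LAMA1 and LAMC1 EMBV3_11677. Each other member probe changed sign with the dye in 1 or more pairs.

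NID2, the second nidogen, had ratios of -0.29, -0.07, 0.42 and -0.21, with a mean of -0.03 ± 0.32. With glucose in Cy5 and in Cy3, pair 2 gave 0.08 and -0.22, and pair 4 gave 0.03 and -0.44. Its levels were 9.43, 8.48, 9.39 and 8.96 in the control pools and 9.14, 8.41, 9.81 and 8.76 in the glucose pools. Pool 2 was the lowest and pools 1 and 3 the highest in both groups. In that order the nidogens did not match, since glucose pool 2 had the highest NID1 level and the lowest NID2 level.

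HSPG2, the core protein of the heparan sulfate proteoglycan perlecan, had ratios of -0.10, -0.10, 0.44 and -0.53, with a mean of -0.07 ± 0.40. In pairs 1 and 2 the sign changed with the dye, at 0.21 with glucose in Cy5 and -0.41 with glucose in Cy3. Its levels were 9.98, 10.54, 10.76 and 11.45 in the control pools and 9.88, 10.44, 11.20 and 10.93 in the glucose pools. Pool 1 was the lowest and pools 3 and 4 the highest in both groups. The mean log2 signal of its probe was 10.19 on array set 047 and 11.11 on array set 056, a gap between sets that is not between groups.

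SPARC, made in large amounts by endoderm and by matrix-forming cells, had ratios of 0.26, 0.11, 0.78 and -0.37, with a mean of 0.19 ± 0.47. The control pools lay close together at 12.01, 11.72, 11.94 and 12.01, whereas the glucose pools had 12.27, 11.83, 12.71 and 11.65. Glucose pool 3 was the highest and glucose pool 4 the lowest of the 8. Without pair 3 the mean ratio was 0.00.

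**Figure D2:**
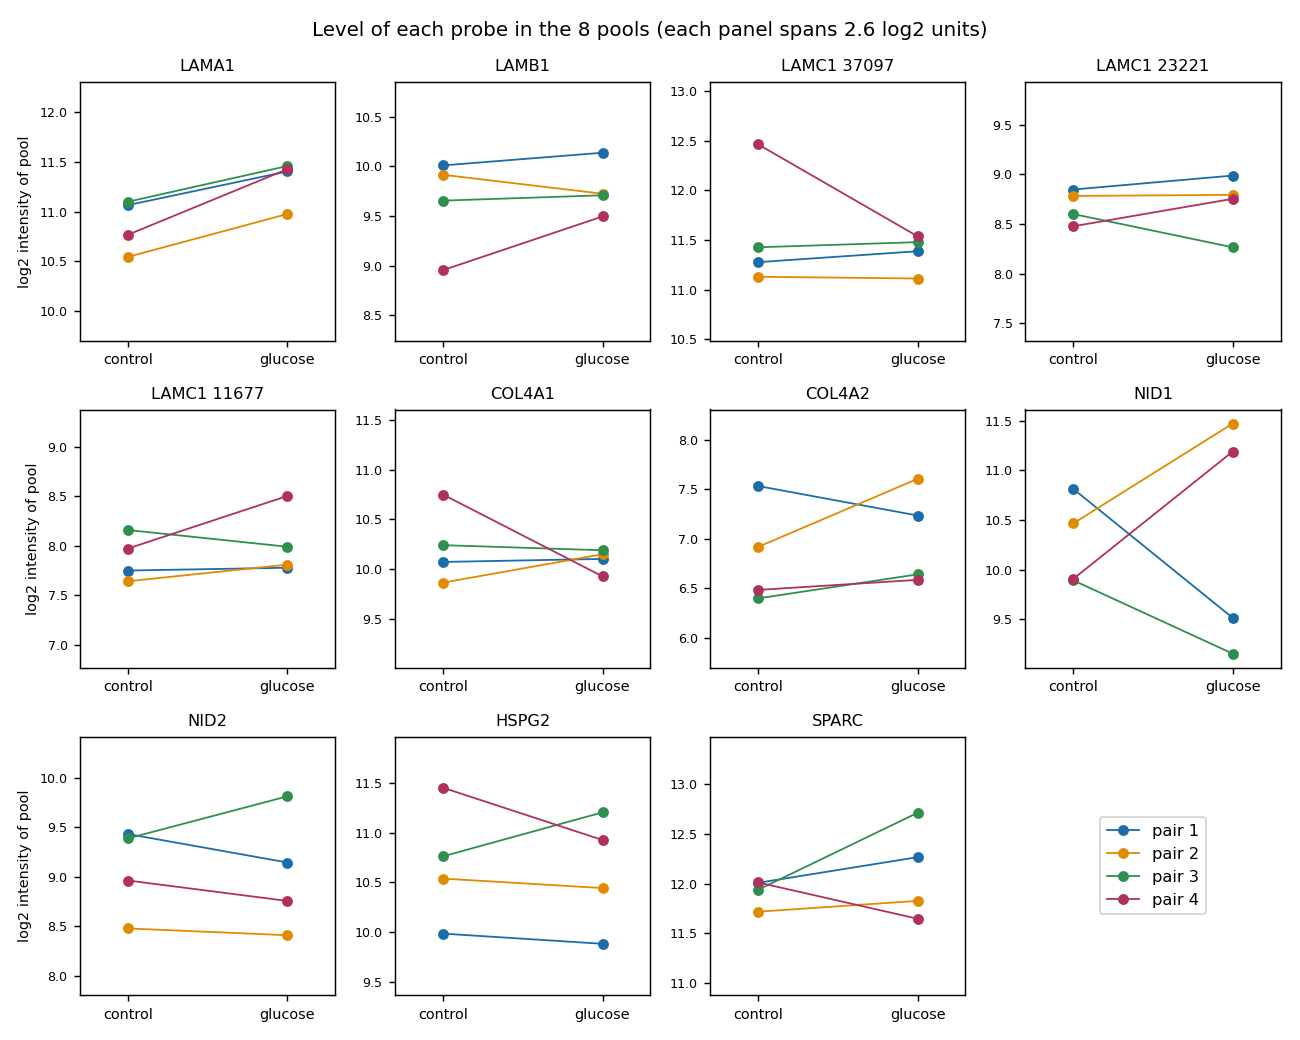
Log2 intensity of the 11 probes in the control and glucose pool of each pair, joined by a line; every panel spans the same height, and levels are not comparable between panels. LAMA1 rises along every line, NID1 lines cross with glucose pools from 9.16 to 11.47, and control pool 4 is the highest pool for LAMC1 EMBV3_37097 and COL4A1.

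The pool pairs were then asked whether their ratios differ by more than the dye-swapped arrays of a pair do. This test leaves out the mean ratio by which LAMA1 was chosen. By limma's moderated F test over 3 contrasts between pairs, 10 of the 11 member probes passed an adjusted p of 0.05, beside 46% of all tested probes and 54.8% of named genes by their brightest probe. The adjusted p was 3.19e-06 for NID1, 8.26e-05 for COL4A1, 0.000118 for LAMC1 EMBV3_37097, 0.000176 for SPARC and 0.000826 for NID2. It was 0.00193 for LAMB1, 0.00345 for COL4A2 and 0.00415 for HSPG2, and 0.00227 and 0.0149 for LAMC1 probes EMBV3_11677 and EMBV3_23221. LAMA1, whose even ratios were part of its choice, had 0.09 as a description. The median range between pairs was 0.97 for the member probes and 0.37 over all tested probes. Among probes with a channel above the limit on all 8 arrays, 9 of 10 member probes passed, beside 14612 of 24177 probes. The background was not matched to the member probes for brightness.

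These calls needed the loess step, which removes intensity-dependent dye trends within each array. With each array centred on its median instead, 0 of the 11 member probes and 0 of all tested probes passed, and NID1 had an adjusted p of 0.0711. With the median in place of the mean spot intensity, 3 member probes passed, those of NID1, LAMB1 and LAMC1 EMBV3_37097. Leaving out pair 4 raised LAMC1 EMBV3_37097 to 0.502, leaving out pair 3 raised NID2 to 0.268 and HSPG2 to 0.0865, and leaving out pair 2 raised COL4A2 to 0.0687. LAMC1 EMBV3_23221 lost its call without pair 3 (0.223) and without pair 4 (0.0571). With scale normalization between arrays LAMB1 (0.0934) and LAMC1 EMBV3_23221 (0.0691) did not pass. NID1, LAMB1, COL4A1, SPARC and LAMC1 EMBV3_11677 passed in each fit that left out 1 pair. Without pair 4, LAMB1 (0.0443), COL4A1 (0.0468) and LAMC1 EMBV3_11677 (0.0484) passed narrowly. The cause of the dependence on loess was not tested.

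Pools of the same treatment also differed in these genes, which uses no glucose contrast. By a separate-channel fit in limma, in which a pool has 2 channel values, 7 of the 11 member probes differed among the 4 control pools, beside 33.6% of all tested probes and 43% of named genes. Among the 4 glucose pools 7 differed, beside 29.5% and 38.8%. As genes by their brightest probe, 6 of 9 differed in each group. Among probes with a channel above the limit on all 8 arrays, 7 of 10 member probes differed in each group. Of all 24177 such probes, 11469 differed among control pools and 10078 among glucose pools.

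Among control pools, the spread of LAMC1 EMBV3_37097 was 2.52-fold from the lowest to the highest pool (limma, adjusted p = 2.76e-05), that of LAMB1 2.08-fold (0.000196) and that of COL4A1 1.85-fold (0.000199). All of these rested on control pool 4, where the LAMC1 and COL4A1 probes were high and LAMB1 low. Without pair 4 the adjusted p was 0.245 for LAMC1, 0.0723 for LAMB1 and 0.0987 for COL4A1. The spread was 1.93-fold for NID2 (0.000151), 1.89-fold for NID1 (0.000672) 1.47-fold for LAMA1 (0.00836) and 1.43-fold for LAMC1 EMBV3_11677 (0.0103). Leaving out pair 2, whose pools were low in LAMA1, raised LAMA1 to 0.157. LAMC1 EMBV3_11677 lost its call without pair 2 (0.103) and without pair 3 (0.184). HSPG2, with a spread of 2.77-fold, had an adjusted p of 0.147, and 0.000249 once the array set was added as a term, an alternative chosen after the data were seen.

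Among glucose pools, NID1 spread 4.98-fold (limma, adjusted p = 1.79e-06), NID2 2.64-fold (2.77e-05) and SPARC 2.10-fold (0.000576). These 3 genes passed in the glucose pools under each of the 9 alternatives run, and NID1 and NID2 also did so in the control pools. SPARC spread only 1.23-fold among the control pools (0.301). Whether the spread of SPARC differed between the groups was not tested. LAMB1 spread 1.56-fold among glucose pools (0.0098) and lost its call without pair 1 (0.472). LAMA1 spread 1.40-fold (0.0215) and lost its call without pair 2 (0.969) and without pair 3 (0.0692). LAMC1 EMBV3_11677 spread 1.65-fold (0.00113) and lost its call without pair 4 (0.320). LAMC1 EMBV3_37097, at 1.34-fold (0.0486), lost its call under 6 of the 9 alternatives. COL4A1 spread 1.20-fold (0.194).

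The genes whose levels ran most like LAMA1 over the 8 pools were sought among 2850 genes above the negative controls in all 16 channels. The 5 with the highest Pearson correlation were MACF1 (0.90), KARS (0.90), CLU (0.89), EIF4E2 (0.88) and H2AFY (0.85), which encode a cytoskeletal linker, lysyl-tRNA synthetase, clusterin, a cap-binding protein and a macro-histone. Of the members, NID2 had 0.55, SPARC 0.50 and LAMB1 0.22. The correlation was -0.07 for COL4A2, -0.08 for HSPG2, -0.09 for LAMC1 by its brightest probe, -0.18 for COL4A1 and -0.25 for NID1. By Spearman rho LAMC1 had 0.40 and LAMB1 -0.05. LAMB1, NID1, NID2 and COL4A1 exceeded the limit in 15 of 16 channels, missing only the channel of glucose pool 1 with the raised limit. COL4A2 exceeded it in 8. None of these genes could enter the 2850 candidates. Of these candidates, 985 were at least as like LAMA1 as LAMB1 was, and 1848 as LAMC1 was. The dimmer LAMC1 probes were not compared with LAMA1. The 8 levels span both groups, so the contrast on which LAMA1 was chosen enters these correlations. Pools of a pair share arrays, and the choice of 5 did not hold: under each of the 7 alternatives tried, 0 to 2 of them stayed in the first 5. With the brightest negative control spot of each channel left out of the limit, 8792 genes entered and FZD1 led with 0.98.

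Other matrix genes were read from lists, with 1 brightest probe for each gene. Of 9 other laminin chains, 3 were tested, and LAMA5, an alpha chain of many epithelial basement membranes, had ratios of -0.16, 0.46, -0.16 and -0.64 (pool pairs, limma adjusted p = 8.53e-05). LAMA4 also passed (0.0351) and LAMB3 did not (0.992). The LAMA4 probe was dim and exceeded the negative controls in 3 of 8 glucose and 6 of 8 control channels. Of 15 other basement membrane genes tested, 8 passed the pair test, or 53.3% against 54.8% of named genes. EFEMP1, a fibulin, had 0.84, -0.31, 1.73 and 0.22, and SMOC2, a relative of SPARC, had 1.14, -0.02, 1.61 and -0.08. COL4A5, another collagen IV chain, had -0.00, -0.04, 0.85 and 0.11, FN1, fibronectin, -0.65, -0.04, 0.29 and 0.20, and COL15A1 0.03, 0.09, 0.47 and -0.40. NTN4, a laminin-related netrin, had 0.51, -0.02, 0.80 and -0.07. Its probe was dim and exceeded the negative controls in 3 of 8 glucose and 2 of 8 control channels, that of SMOC2 in 4 and 5. The median ratio of this list was 0.01, as over all named genes.

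Of 18 receptor genes 7 passed the pair test, or 38.9% beside 54.8% of named genes, and their median ratio was 0.02. ITGA6, the alpha subunit of a laminin receptor, had -0.21, 0.38, -0.40 and 0.67, with the same sign as NID1 in each pair. ITGB1, which did not pass, had these signs too (-0.07, 0.09, -0.12 and 0.19). SDC1 and SDC4, syndecans, had 0.41, -0.25, -0.24 and 0.76, and 0.14, -0.79, -0.08 and 0.55. ITGA7, a muscle-type laminin receptor subunit, had -0.07, -0.12, 0.56 and -0.55. BCAM and SDC3 also passed.

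Of 19 genes for collagen assembly and secretion, 13 passed the pair test, beside 54.8% of named genes. A mean ratio above 0 was found for 14 of the 19, beside 52.2% of named genes, and the median ratio was 0.16 beside 0.01 over all named genes. PLOD2, a collagen lysyl hydroxylase, had 1.83, 0.50, 2.23 and 0.59. TFG and SEC24D, of the export machinery for procollagen, had 0.15, 0.44, -0.16 and 1.44, and 0.41, 0.07, -0.20 and 1.06. The hydroxylase genes P4HA2, PLOD1 and LEPREL1 had mean ratios of 0.37 ± 0.44, 0.42 ± 0.46 and 0.26 ± 0.48. Of 12 genes for matrix turnover, 9 passed the pair test and 11 had a mean ratio above 0, beside the same 54.8% and 52.2%, with a median of 0.07. The count above 0 includes MMP2 and MMP9, whose means were 0.00. The median range between pairs for this list was 0.63. PLAU, the urokinase plasminogen activator, had 0.17, 0.18, -1.01 and 2.08, and TIMP1, a metalloproteinase inhibitor, 0.46, 0.25, 0.72 and -1.24. CTSL2, CTSB, PLAUR and TIMP2 passed as well. None of these genes passed the test of glucose against control.

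**Figure D3:**
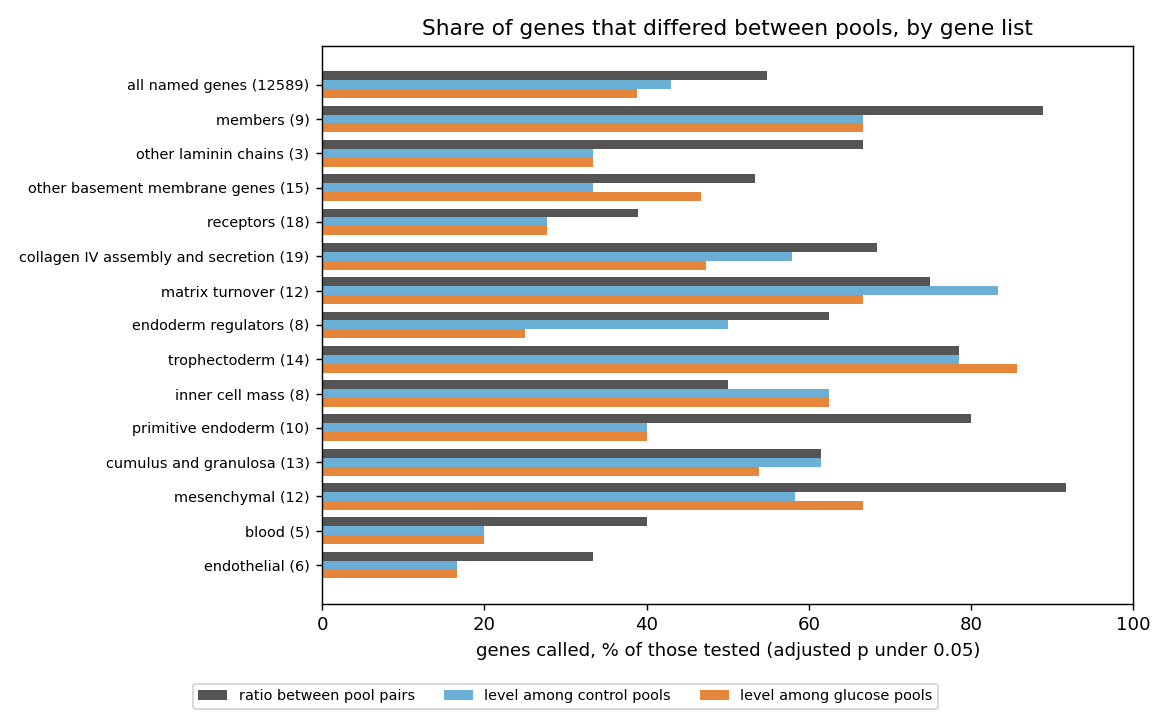
Percent of tested genes with an adjusted p under 0.05 in the test between pool pairs and in the tests among control pools and among glucose pools, for each list, with the number of genes tested in brackets. Of the 9 basement membrane genes 88.9% differed between pairs, against 54.8% of all named genes, and lists of 3 to 19 genes move by large steps. The named genes were not matched to the lists for brightness.

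Markers of the cell types a blastocyst holds, and of cells that could be carried along, were read beside the members. Of 15 trophectoderm markers 14 were tested, and of 8 inner cell mass markers 8. POU5F1, NANOG and KRT18, which mark these lineages, exceeded the negative controls in 16 of 16 channels. In total 9 of the 14 trophectoderm and 3 of the 8 inner cell mass markers did so. Of 12 primitive endoderm markers 10 were tested. By lowest p in the pair test, HNF4A had ratios of -1.43, 0.67, 0.02 and -0.91, PDGFRA, a receptor of the endoderm lineage, -0.46, 0.57, 1.03 and -0.88, and APOA1 -0.16, 0.26, 0.37 and -0.42. FN1 is given above, RSPO3 had -0.43, 0.43, 0.29 and 0.32, and FOXA2 had 0.02, 0.22, 0.16 and 0.55. The FOXA2 probe was dim and exceeded the negative controls in 5 of 8 glucose and 3 of 8 control channels. Of 8 endoderm regulators tested 5 passed, and beside HNF4A, PDGFRA and FOXA2 these were DAB2 (-0.01, 0.15, 0.34 and -0.60) and GATA4 (0.37, 0.09, 0.78 and -0.32). SOX17 exceeded the negative controls in 6 of 16 channels. The summed intensity of the primitive endoderm markers was 40846 to 57885 in the control pools and 35597 to 51612 in the glucose pools. Without FN1, the brightest, it was 12303 to 21819.5 and 9983 to 19207.

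SPARC and HSPG2 were highest in pair 3 and lowest in pair 4. This order was found for 2 of the 9 members, 3 of 10 primitive endoderm markers (PDGFRA, APOA1 and GATA4), 6 of 12 mesenchymal markers, 6 of 15 other basement membrane genes and 15.4% of all named genes. Pair 3 was above pair 4 for 6 of the 9 members, 8 of 10 primitive endoderm markers, 10 of 12 mesenchymal markers, 13 of 15 other basement membrane genes and 10 of 13 cumulus and granulosa markers. It was so for 3 of 14 trophectoderm markers, 1 of 8 inner cell mass markers and 51.4% of all named genes. These comparisons were chosen after the values were seen and have no test, and the order is not particular to the primitive endoderm list.

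Of 15 mesenchymal markers 12 were tested, and their median ratio was 0.68 in pair 1, -0.07 in pair 2, 0.93 in pair 3 and -0.07 in pair 4. LUM had 1.79, -0.23, 4.53 and 1.53, VIM, vimentin, 2.26, 0.30, 2.85 and -0.12, and COL1A2 0.86, -0.06, 1.24 and -0.42. COL3A1 had 1.33, -0.32, 1.79 and 0.17, POSTN 1.25, -0.26, 1.43 and -0.11, and DCN 0.73, 0.22, 1.34 and -0.02. The DCN probe was dim and exceeded the negative controls in 4 of 8 glucose and 3 of 8 control channels. Other markers of this list ran the other way: ACTA2 had -0.07, 0.14, -0.43 and 0.45, and TWIST1 had 0.06, 0.12, -0.21 and 0.30. SPARC, which mesenchymal cells also make, was higher in pairs 1 and 3 than in pairs 2 and 4, and NID1 was below 0 in pairs 1 and 3 and above 0 in pairs 2 and 4. LAMA1 did not follow this order. The summed intensity of the mesenchymal markers was 23352 to 33373 in the control pools and 25322 to 49149 in the glucose pools, of which ACTA2 alone made up 42.7% to 86.8% per pool. Without ACTA2 the sum was 3356 to 6130.0 in the control pools and 3355 to 28169 in the glucose pools. TAGLN exceeded the negative controls in 6 of 16 channels.

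Of 14 cumulus and granulosa markers 13 were tested and 8 passed the pair test. HSD3B1 had 0.00, 0.36, -1.19 and 1.06, GJA1 1.15, -0.22, 1.41 and 0.60, and PTX3 0.10, -0.14, 1.37 and -0.26. INHBA had -0.01, 0.41, 1.22 and -0.08, STAR 0.67, -0.05, 0.33 and -0.23, and TNFAIP6 -0.23, 0.35, 0.52 and 0.11. GJA1, PTX3, INHBA and TNFAIP6 were thus highest in pair 3, as were SPARC, NID2 and HSPG2. The other passing markers were not: STAR was highest in pair 1, CYP11A1 in pair 2 (-0.21, -0.03, -0.22 and -0.57), and HSD3B1 and CYP19A1 (-0.47, -0.35, -0.34 and 0.26) in pair 4. The share of all named genes highest in pair 3 was not counted. The list's summed intensity was 4263 to 6485 in the control and 5355 to 7033 in the glucose pools, and without HSD3B1, the brightest, 2956 to 3966 and 2802 to 4509.6. Of 6 blood markers 5 were tested, and HBA and PTPRC passed the pair test. Of 6 endothelial markers 6 were tested, and CDH5 and KDR passed. The KDR probe was dim and exceeded the negative controls in 2 of 8 glucose and 3 of 8 control channels. The median ratios of the blood and endothelial lists were 0.07 and -0.06. The part of these cell types in the values of the basement membrane genes was not tested.

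Of 14 trophectoderm markers 11 passed the pair test. IFNT, interferon tau, had 0.81, 0.88, -1.74 and 0.56, and TKDP1 -0.12, 1.25, -1.08 and 0.09. PAG11, a pregnancy-associated glycoprotein of trophoblast, had -0.64, 0.55, -0.97 and 1.29, and PAG2 had -0.25, 0.22, -0.22 and 1.50. The transcription factor genes TFAP2A and TFAP2C had -0.19, 0.13, -0.09 and 0.94, and 0.29, -0.22, -0.16 and 0.80. The summed intensity of trophectoderm markers was 108792 to 131469.8 in the control pools and 90533 to 138221 in the glucose pools. Of 8 inner cell mass markers 4 passed: NANOG had -1.94, 0.54, -0.27 and 0.22, SPIC 0.08, 0.12, 0.11 and -0.59, KLF4 -0.00, -0.14, 0.13 and 0.72, and LIN28B 0.24, 0.15, -0.25 and -0.02. The signs of NID1 in each pair were thus shared by TKDP1, PAG11, PAG2, TFAP2A and NANOG, across both lists. They were not shared by the other markers that passed. These were IFNT, TFAP2C, KRT8, KRT18, KRT19, GATA2 and GATA3 of trophectoderm, and SPIC, KLF4 and LIN28B of the inner cell mass. The share of all named genes with these signs was not counted.

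**Figure D4:**
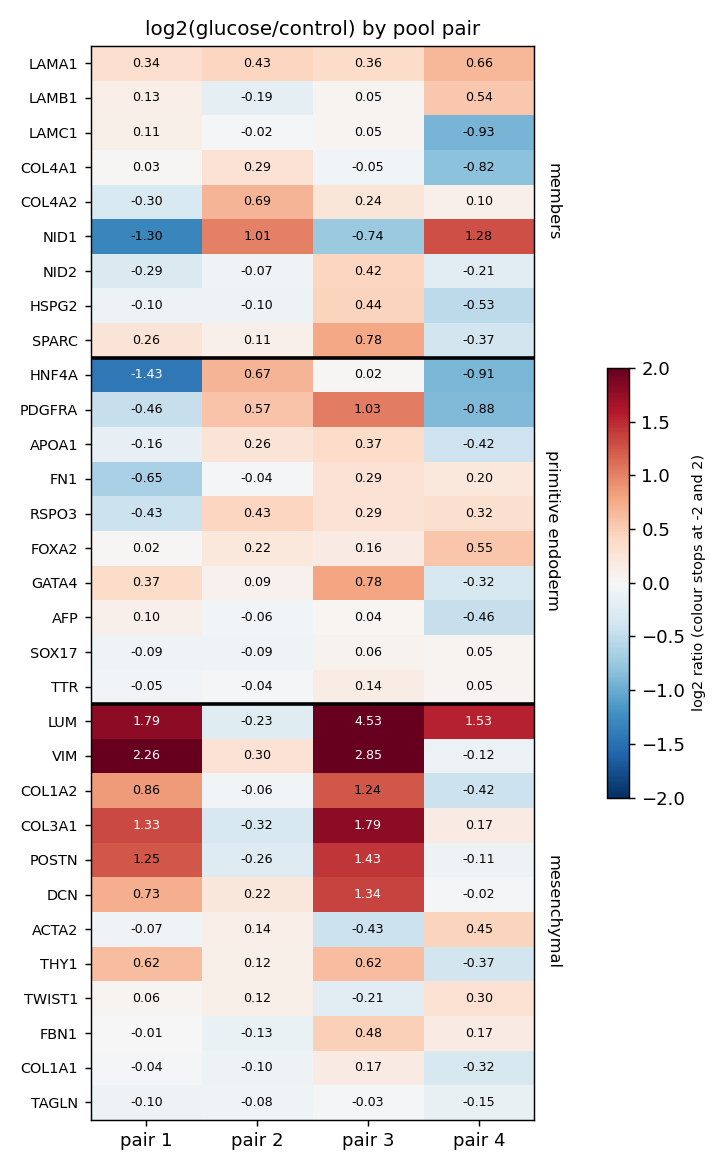
Log2(glucose/control) in each of the 4 pool pairs for the 9 basement membrane genes (LAMC1 by its brightest probe), 10 primitive endoderm markers and 12 mesenchymal markers; red is brighter in the glucose pool. LAMA1 is red in every pair, NID1 alternates, and SPARC, HSPG2, NID2, PDGFRA and GATA4 are highest in pair 3.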

How the data were processed

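Amplified RNA (a T7 amplification in 2 rounds, per the labels' protocols) was measured in 2 channels on 8 Agilent arrays. The deposited scanner tables give spot intensity and local background in both channels, without normalization, per the file headers. The deposited series table holds a score per probe and array whose unit the authors did not state. Set against the scanner values it was read as log2 glucose signal over log2 control signal: recovered ratios correlated at 0.934 to 0.996 with those from the scanner over brighter probes (slopes 0.969 to 1.17), always in the direction of glucose over control. Its column medians were 0.9985, 0.9992, 0.9996, 0.9999, 0.9993, 0.9981, 0.999 and 1. Its normalization stays unknown, and it served as an alternative. The submitters' processing notes name limma. Neither labels nor headers name the scanner software.

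With limma 3.58.1 (R 4.3.3), the background of mean spot intensities was corrected by normexp (offset 50), and ratios were normalized by loess within arrays, with control spots at weight 0. A probe was tested when above the mean plus 2 SD of 153 negative control spots in 1 channel on 4 or more of 8 arrays. Ratios were averaged over the arrays of a number, and limma tested 4 pair values against 0. Pairs were compared by an F test on 8 arrays with a dye term, pools by a separate-channel fit after Aquantile normalization (intraspot correlation 0.728), all with Benjamini-Hochberg adjustment over 32935 probes. The threshold was 0.05. The fits were checked on simulated data.

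The labels give arrays of one number opposite dyes but do not state that they share pools. With the dye effect removed, same-numbered arrays correlated at 0.733, 0.773, 0.846 and 0.912, each above any other number (0.214 at most), and with it left in at -0.0457, -0.166, 0.152 and 0.559. Pool and array number cannot be told apart.

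The genes, lists and tests were chosen with earlier results of these data known. All members are named. From each list the genes passing the pair test were named, up to 6 by lowest p. POU5F1, KRT8, KRT18, KRT19, GATA2, GATA3, SOX17, ACTA2, TWIST1, TAGLN, LAMB3, ITGB1, MMP2, MMP9, CYP11A1 and CYP19A1 were named after their values were seen. Gene names are those of the array annotation: 21790 probes have 1 symbol and 22004 are unnamed here. Gene order came from RefSeq (ARS-UCD2.0), and coordinates were left out, as the array's build is unnamed. The number of arrays limits the precision.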

Additional observations from a re-analysis of the deposited data

Results flagged for a closer look

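In 55 groups of 4 values (pair ratios, control levels, glucose levels and array ratios in each dye orientation, for 11 probes) 5 had 1 value far from the other 3. Chance gives about 1 in 20 such groups, and the groups share arrays. LAMA1 had a level of 10.98 in glucose pool 2, against 11.41 to 11.46 in the others. With glucose in Cy5, the LAMA1 ratio was 0.50 on array 4 and 0.04 to 0.09 on the others. LAMC1 EMBV3_37097 had a ratio of -0.93 in pair 4, against -0.02 to 0.11, and -0.96 on array 4 with glucose in Cy3, against 0.08 to 0.15. HSPG2 with glucose in Cy3 had 0.32 on array 3, against -0.52 to -0.41.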

How the results depend on the processing

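Glucose over control gave 0 adjusted calls under each of 17 alternatives, among them the array number as a replicate block on 8 arrays (0 calls, block correlation 0.702), array set 047 or 056 alone and the authors' deposited table. The mean ratio of each member probe moved by less than its SD between pairs under each alternative. This limit is loose, since leaving out 1 pair cannot move a mean that far. Alternatives that change only the filter or the block leave the mean as it was. LAMA1 lay between 0.38 and 0.53, and COL4A2, SPARC and LAMC1 EMBV3_11677 also stayed above 0. NID1 ran from -0.34 to 0.52. The means of LAMB1, NID2, HSPG2, COL4A1 and the other LAMC1 probes also changed sign under some alternatives. The number of probes that differed between pool pairs, 15142, became 0 with median centring in place of loess, 5539 with median spot intensity, and 9442 (without pair 4) to 14344 with 1 pair left out. The control pool count, 11080, became 6290 with no between-array step and 5008 (without pair 4) to 9115 with 1 pair left out. The glucose pool count, 9726, became 4377 with no between-array step and 5785 (without pair 3) to 7511 with 1 pair left out. The cause was not tested. With no between-array step 4 member probes passed in each group of pools, and LAMA1 and LAMC1 EMBV3_11677 lost both calls. With the array set as a term, chosen after the data were seen, 9 passed among control and 11 among glucose pools, beside 49.2% and 43.8% of all tested probes, up from 33.6% and 29.5%. Of the adjusted p-values of member probes under alternatives, 117 of 142 kept their side of the threshold between pairs, 85 of 98 among control pools and 80 of 98 among glucose pools. On the array of set 056 numbered 1, 1 bright negative control spot set the Cy3 limit to 1318 instead of 146, which put 7 member probes below it in that channel. The channel held glucose pool 1, so counts of glucose channels above the limit are lowered beside those of control channels. Signal over background limits COL4A2 most.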
